A study of Mus musculus with 9 samples.

Results

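The genes of the bone morphogenetic protein (BMP) and transforming growth factor beta (TGF-beta) pathways were described in mouse tumour tissue at postnatal day 8 or 9. Members were chosen by symbol, as BMP, TGF-beta and activin ligands, their receptors, the Smads, Id1 to Id3, 5 secreted antagonists and Smurf1, and 42 of the 17482 genes in the table met this rule. Of these 42 members 39 had enough signal to be tested, with a log2 CPM (read counts scaled to library size, on a log2 scale) above 0 in at least 3 libraries. Bmp3, Bmp8b and Inhba did not.

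RNA was taken from tissue recorded as MB in 3 groups of 3 libraries each. SG carried fSMO-M2;hGFAPcre, that is a conditional allele of SMO-M2, an activated form of the Hedgehog transducer Smoothened, with a Cre driver named for the human GFAP promoter, which is active in neural progenitors. YSGr and YSGnr carried fYap1;fSMO-M2;hGFAPcre, so all groups share SMO-M2 and the driver, and these groups add a floxed Yap1 allele and are marked as rescued and not rescued. The labels do not say what rescue means, whether Yap1 was floxed on 1 or both alleles, what sex the animals had or whether each library came from its own animal, and p-values therefore reflect only how far these libraries vary, which may be technical.

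YSGnr replicate 1 was the shallowest library, with 9.66 M reads back-calculated from the table beside 17.3 to 29.2 M for the other 8, and there Yam1 and Lars2 took 63.4% of reads and all other genes together had 3.53 M. Values near or below 0 log2 CPM in that library rest on few reads, as for Nog, Acvr1c, Bmp2 and Fst below. Yap1, the targeted gene, stood at 5.04, 5.11 and 5.03 log2 CPM in the SG libraries, at 4.44, 3.31 and 2.79 in YSGr and at 2.79, 2.57 and 1.99 in YSGnr. Xist was at 9.81 log2 CPM or more in the 3 YSGr libraries and YSGnr replicate 1 and below 0 in the other 5. The Y-linked gene Ddx3y showed the reverse. A difference between YSGr and SG therefore cannot be told apart from a difference tied to sex. The same holds in large part between YSGr and YSGnr, where only YSGnr replicate 1 was like YSGr in Xist. All 10 markers of granule neuron progenitors, the cells of origin of Hedgehog-driven cerebellar tumours, were in the table, with library medians between 6.39 and 8.16 log2 CPM. YSGr replicate 3 stood apart within its group: its cell cycle median was 7.28 log2 CPM, against 6.17 and 5.86 in replicates 1 and 2 and 7.14 to 7.24 in SG.

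BMPs, TGF-betas and activins are secreted dimers that bring together type I and type II serine/threonine kinase receptors. The type I receptor then phosphorylates a receptor-activated Smad, Smad1, Smad5 or Smad9 for most BMPs and Smad2 or Smad3 for TGF-betas and activins, which enters the nucleus with Smad4. In the developing cerebellum BMPs are known to oppose Hedgehog-driven proliferation of granule neuron progenitors, and TGF-beta is needed by microglia and vessels.

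Against SG, YSGr tumours had more RNA of the activin subunit gene Inhbb, the ligand gene Bmp5, the protease gene Bmp1 and the type I receptor gene Acvr1c, and less RNA of the type I receptor gene Tgfbr1 and of Smad3. Of 39 tested members 4 rose and 2 fell, and 33 were not called (limma, Benjamini-Hochberg adjusted p below 0.05 over all 15251 tested genes). Over all tested genes 10.5% were called, 6.58% higher and 3.97% lower. Against SG, YSGnr tumours had less Tgfbr1, the 1 member called of 39, where 3.36% of all genes were called, 2.17% lower. Between the floxed groups, Inhbb, Nog and Acvr1c were higher in YSGr, 3 of 39 members, where 5.97% of all genes were called and 5.09% were called higher and 0.879% lower. The shares of members called were 15.4%, 2.56% and 7.69%, not far from those of all genes. The first and second comparisons share the SG libraries, and the third is the direct test of the difference between them.

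The median difference over the 39 members was 0.18 log2 units for YSGr against SG, -0.29 for YSGnr against SG and 0.39 for YSGr against YSGnr, beside -0.02, -0.01 and 0.01 over all tested genes. The libraries of the groups did not overlap for 19 members in YSGr against SG (9 higher, 10 lower), where this held for 36.8% of all genes, 19.5% higher and 17.3% lower. For YSGnr against SG it held for 18 members (2 higher, 16 lower), and for 38.2% of all genes, 16.9% higher and 21.3% lower. For YSGr against YSGnr it held for 11 members (10 higher, 1 lower), and for 22.5% of all genes, 15.0% higher and 7.46% lower. Bmp2 is among the higher members in both comparisons of YSGr. It was above 0 log2 CPM only in the YSGr libraries, so the filter fixed its lack of overlap, and it also enters the medians above. In YSGnr 31 of 39 members had a mean below that of SG, with or without overlap of libraries, beside 7725 of all 15251 tested genes. In bulk tissue, fewer cells of a type and less RNA per cell cannot be told apart.

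**Figure D1:**
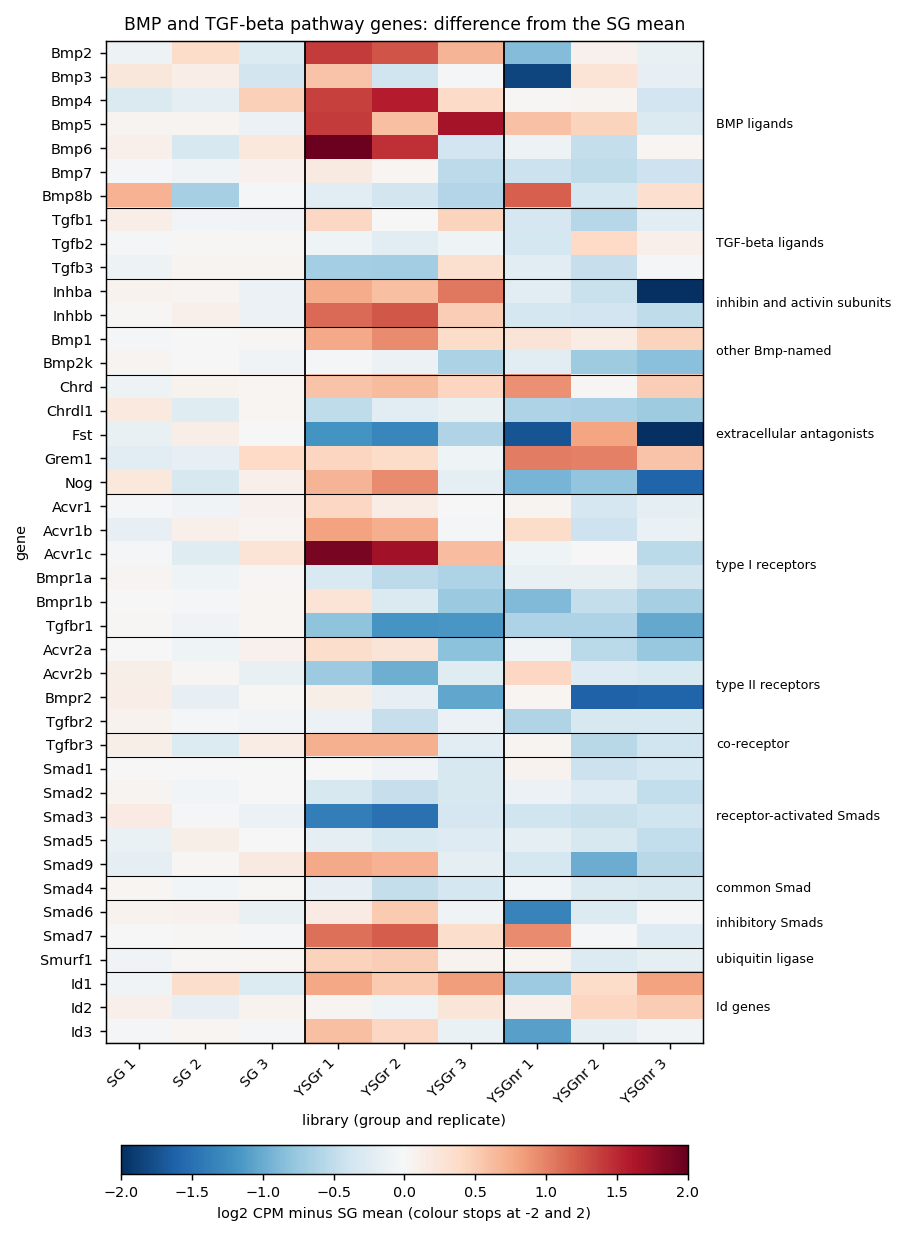
Each row is a member, grouped by role, each column a library, and colour gives its log2 CPM minus the SG mean of that gene. Bmp2, Bmp4, Bmp6, Inhbb, Acvr1c and Smad7 are reddest in YSGr replicates 1 and 2 and paler in replicate 3, and most rows are pale blue in YSGnr replicates 2 and 3.

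Among BMP ligands, Bmp5 rose in YSGr. It was at 2.79, 2.78 and 2.62 log2 CPM in the SG libraries, at 4.13, 3.33 and 4.39 in YSGr and at 3.31, 3.17 and 2.44 in YSGnr. All YSGr libraries lay above all others, and the YSGnr libraries spanned the SG range. The difference between YSGr and SG was 2.33-fold (log2 fold change 1.22, SE 0.31, adjusted p = 0.036), and that between YSGr and YSGnr, 0.98 log2 units, was not called (adjusted p = 0.0759). The call was lost without any 1 SG library, YSGr replicate 1 or YSGnr replicate 2 (highest adjusted p = 0.132). Bmp5 (chr9:75775364-75900310, GRCm38) shares 1878 exonic bases with a gene on the opposite strand, Bmp2k 1185, Acvr2a 446, Bmpr1a 290, Acvr1c 168 and Bmp4 89. Some other members overlap genes too, Smad5 and Tgfbr3 on the same strand. Reads of an opposite-strand gene cannot be told apart from those of the member without strand, and the labels do not say whether the libraries kept strand.

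Bmp4 and Bmp2, closely related ligands of the BMP type I receptors, showed a like pattern without a call. Bmp4 was at 1.09, 1.20 and 1.86 log2 CPM in the SG libraries, at 2.74, 2.95 and 1.77 in YSGr and at 1.40, 1.43 and 1.00 in YSGnr. Replicate 3 of YSGr lay within the SG range and the other YSGr libraries well above it. The difference from SG was 1.10 log2 units (SE 0.35, adjusted p = 0.0754), and without YSGr replicate 3 it was 1.46 and was called (limma, adjusted p = 0.00668).

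Bmp2 was low, at -0.77, -0.30 and -0.94 log2 CPM in the SG libraries, at 0.73, 0.59 and 0.01 in YSGr and at -1.54, -0.58 and -0.82 in YSGnr. Only the YSGr libraries were above 0, so Bmp2 entered the test through that group alone. That they lay above the other 6 without overlap follows from the filter. The differences were 1.11 log2 units from SG (SE 0.41, adjusted p = 0.12) and 1.42 from YSGnr (SE 0.41, adjusted p = 0.065), and neither was called. At this level the added count of the table shrinks a fold change.

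Bmp6 had group means of 2.33 ± 0.28 (SG), 3.34 ± 1.23 (YSGr) and 2.15 ± 0.27 (YSGnr) on the log2 CPM scale (SD, n = 3). Its wide spread in YSGr came from values of 4.28 and 3.79 in replicates 1 and 2 and 1.95 in replicate 3, which lay just below the lowest SG library. Bmp7, at 3.23 ± 0.08, 3.13 ± 0.37 and 2.78 ± 0.06, was not called in any comparison, and its YSGnr libraries lay below those of SG. Bmp3 and Bmp8b, not tested, averaged -1.68 and -0.52 log2 CPM in SG. Over the 5 tested BMP ligands 1 rose in YSGr against SG and none fell. All 5 had a higher mean in YSGr than in YSGnr without a call, and Bmp2 among them was tested only through its YSGr values.

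Inhbb, which encodes the beta B subunit of activin B and inhibin B, had the smallest adjusted p of the ligand genes in both comparisons of YSGr. It was at 3.07, 3.15 and 2.94 log2 CPM in the SG libraries, at 4.18, 4.30 and 3.54 in YSGr and at 2.69, 2.67 and 2.54 in YSGnr. The 3 groups did not overlap, with YSGr highest and YSGnr lowest. Inhbb was 1.94-fold higher in YSGr than in SG (log2 fold change 0.96, SE 0.21, adjusted p = 0.0235) and 2.59-fold higher than in YSGnr (log2 fold change 1.37, SE 0.21, adjusted p = 0.0267). The lower value in YSGnr than in SG, -0.42 log2 units, was not called (adjusted p = 0.24). Both calls were lost without any 1 SG library or YSGr replicate 1 or 2, and the second also without YSGnr replicate 2 or 3 (highest adjusted p = 0.105 and 0.144). In the 6 libraries alone the second call was lost as well (limma, adjusted p = 0.154). Inhba, the other activin subunit gene in the table, averaged -1.32 in SG and was not tested.

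The TGF-beta ligand genes did not pass the test in any comparison. Tgfb1 was at 3.48, 3.28 and 3.27 log2 CPM in the SG libraries, at 3.75, 3.36 and 3.79 in YSGr and at 3.00, 2.77 and 3.11 in YSGnr. Every YSGnr library lay below every other. The difference of 0.67 log2 units between YSGr and YSGnr missed the threshold (SE 0.18, adjusted p = 0.0553), and it was called with a transcript length and GC trend removed (limma, adjusted p = 0.0342). Tgfb2, the TGF-beta gene with the highest level per kilobase of transcript, averaged 5.72 ± 0.04, 5.58 ± 0.08 and 5.77 ± 0.37 log2 CPM in the SG, YSGr and YSGnr libraries. Tgfb3 averaged 3.23 ± 0.09, 2.89 ± 0.58 and 2.99 ± 0.22.

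Bmp1 carries a BMP name but encodes a procollagen C-proteinase that also cleaves the antagonist chordin. It was at 6.31, 6.35 and 6.37 log2 CPM in the SG libraries, at 7.10, 7.29 and 6.71 in YSGr and at 6.60, 6.50 and 6.79 in YSGnr. Both floxed groups lay above SG without overlap. The rise in YSGr was 1.62-fold (log2 fold change 0.69, SE 0.16, adjusted p = 0.0285), and the difference of 0.28 in YSGnr was not called (adjusted p = 0.286). The call was lost without any 1 SG library or YSGr replicate 1 or 2 (highest adjusted p = 0.118). Bmp2k, a kinase gene, averaged 4.92 ± 0.06 in SG and 4.33 ± 0.32 in YSGnr and was not called.

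**Figure D2:**
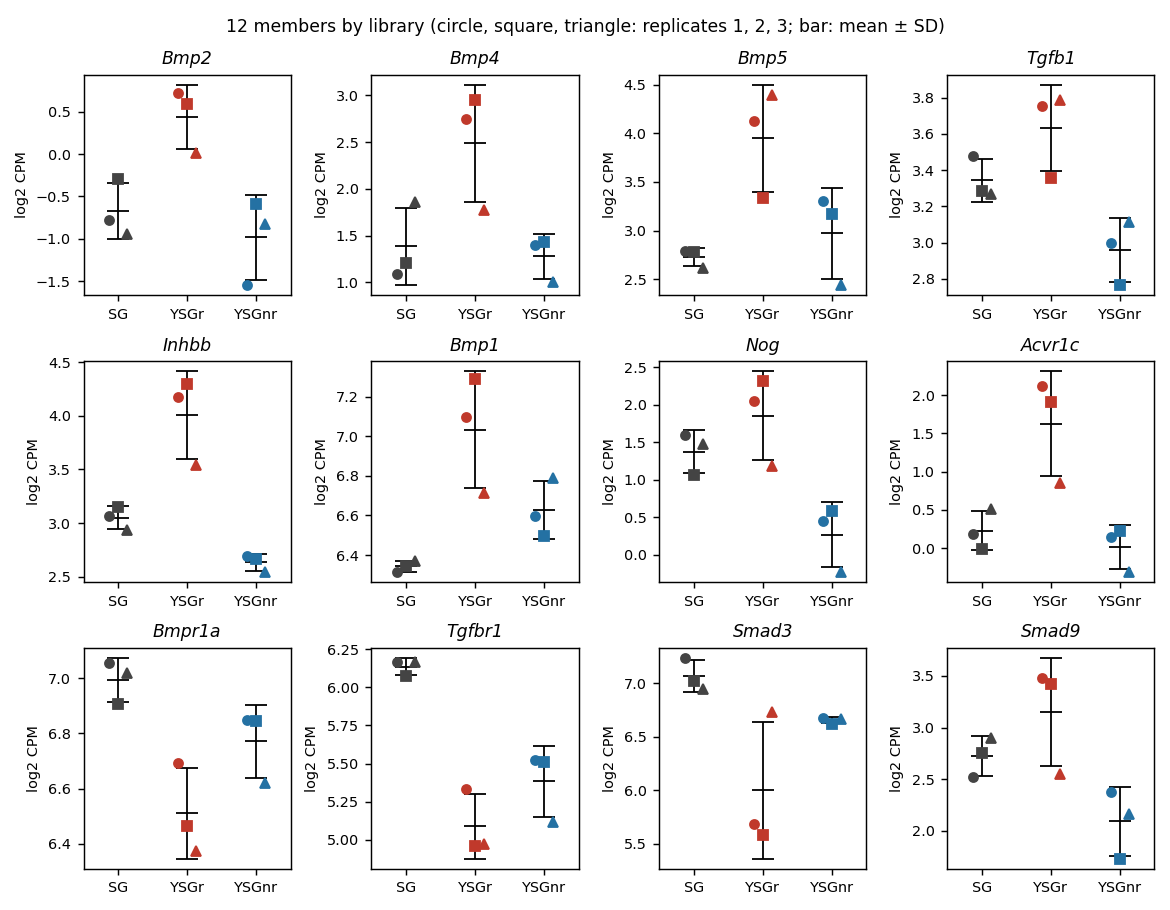
Points give log2 CPM of 12 members in each library (circle, square and triangle for replicates 1, 2 and 3), and bars the group mean and SD (n = 3). YSGr replicate 3, the red triangle, stands apart from the other YSGr libraries for Bmp4, Inhbb, Bmp1, Nog, Acvr1c, Smad3 and Smad9, and the vertical scale differs between panels.

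Among the secreted antagonists, Nog, which encodes the BMP-binding protein noggin, differed between the floxed groups. It was at 1.59, 1.06 and 1.48 log2 CPM in the SG libraries, at 2.05, 2.32 and 1.19 in YSGr and at 0.45, 0.58 and -0.23 in YSGnr. The YSGnr libraries lay below all others, while YSGr replicate 3 lay within the SG range. Nog was 3.01-fold higher in YSGr than in YSGnr (log2 fold change 1.59, SE 0.36, adjusted p = 0.0423). Its differences from SG were not called, at 0.48 in YSGr and -1.11 in YSGnr (adjusted p = 0.458 and 0.106). The call was lost without any 1 library other than YSGr replicate 3 and YSGnr replicate 1 (highest adjusted p = 0.188), with median scaling (adjusted p = 0.053) and in the 6 libraries alone (limma, adjusted p = 0.161).

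The other antagonists were not called. Chordin (Chrd) averaged 4.89 ± 0.09 in SG, 5.44 ± 0.10 in YSGr and 5.37 ± 0.45 log2 CPM in YSGnr, with YSGr above SG without overlap (adjusted p = 0.129). Chrdl1, an X-linked gene of a chordin-like BMP antagonist, averaged 2.39 ± 0.22, 2.09 ± 0.19 and 1.73 ± 0.05, and its YSGnr libraries lay below those of SG (adjusted p = 0.0926). Gremlin 1 (Grem1) averaged 0.57 ± 0.34, 0.81 ± 0.28 and 1.44 ± 0.26, highest in YSGnr (adjusted p = 0.114 against SG). Follistatin (Fst), which binds activins, was at 0.97 log2 CPM in YSGnr replicate 2 and at -1.54 and -2.45 in replicates 1 and 3, so its difference from SG of -1.19 had an SE of 0.76.

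Among type I receptors, Tgfbr1, the TGF-beta receptor, fell in both floxed groups. It was at 6.16, 6.07 and 6.17 log2 CPM in the SG libraries, at 5.33, 4.96 and 4.97 in YSGr and at 5.52, 5.51 and 5.12 in YSGnr. All 6 floxed libraries lay below all SG libraries, YSGr replicate 3 and YSGnr replicate 1 included. Tgfbr1 fell by 1.05 log2 units in YSGr (SE 0.16, adjusted p = 0.00637) and by 0.75 in YSGnr (SE 0.16, adjusted p = 0.0402), and the floxed groups did not differ by the test (difference -0.29, SE 0.16, adjusted p = 0.21). The call in YSGr held in all 9 fits that left out 1 library, the only 1 of the 10 member calls to do so. The call in YSGnr was lost in 7 of these fits (highest adjusted p = 0.175) and when a length and GC trend was removed (difference -0.42, limma, adjusted p = 0.117). It was also lost with median scaling (adjusted p = 0.0503) and without the mean-variance trend (limma, adjusted p = 0.0551).

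Acvr1c, which encodes the type I receptor ALK7 for activin B and Nodal-type ligands, rose in YSGr from a low level. It was at 0.19, -0.01 and 0.51 log2 CPM in the SG libraries, at 2.12, 1.92 and 0.85 in YSGr and at 0.15, 0.22 and -0.31 in YSGnr. The YSGr libraries lay above the other 6, replicate 3 least. The difference was 2.64-fold from SG (log2 fold change 1.40, SE 0.38, adjusted p = 0.0467) and 3.05-fold from YSGnr (log2 fold change 1.61, SE 0.38, adjusted p = 0.0452). Both calls were lost without any 1 library other than YSGr replicate 3 and YSGnr replicate 1 (highest adjusted p = 0.185 and 0.2), with median scaling (adjusted p = 0.0546 and 0.0541) and in the 6 libraries of each comparison alone (limma, adjusted p = 0.0559 and 0.161).

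Bmpr1a, the most abundant receptor of the set per kilobase, was at 7.06, 6.91 and 7.02 log2 CPM in the SG libraries, at 6.69, 6.47 and 6.37 in YSGr and at 6.85, 6.85 and 6.62 in YSGnr. The SG libraries were highest without overlap. Its difference of -0.48 in YSGr (SE 0.13) had an adjusted p of 0.050008 and was not called, and it was called lower with the stricter filter, a pseudocount of 1, quantile normalization, array weights or the 6 libraries alone, and without YSGr replicate 3 or YSGnr replicate 1. Bmpr1b averaged 3.79 ± 0.03, 3.54 ± 0.51 and 3.11 ± 0.20 log2 CPM in the SG, YSGr and YSGnr libraries, Acvr1 4.69 ± 0.08, 4.87 ± 0.21 and 4.53 ± 0.19, and Acvr1b 5.47 ± 0.15, 5.97 ± 0.46 and 5.40 ± 0.40, without a call. Of the 6 type I receptor genes all had a mean below that of SG in YSGnr, and 1 of them was called. Libraries overlapped for some, and Acvr1b in YSGnr replicate 1 (5.83) lay above all SG libraries.

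None of the 4 type II receptor genes was called, and the means of all 4 were below that of SG in both floxed groups. Single libraries went the other way, as Acvr2a in YSGr replicates 1 and 2 (5.67 and 5.58) and Acvr2b in YSGnr replicate 1 (4.17) lay above all SG libraries. The BMP receptor gene Bmpr2 was at 6.28, 5.98 and 6.17 log2 CPM in the SG libraries, at 6.25, 5.97 and 5.09 in YSGr and at 6.18, 4.52 and 4.53 in YSGnr. YSGr replicate 3 and YSGnr replicates 2 and 3 were low and the other floxed libraries within or near the SG range, so the differences were -0.37 and -1.06 with an SE of 0.44 (adjusted p = 0.666 and 0.176). Bmpr2 has the longest transcript of the set, 12.9 kb. Tgfbr2 averaged 4.91 ± 0.07, 4.68 ± 0.20 and 4.50 ± 0.17 log2 CPM, Acvr2a 5.32 ± 0.09, 5.25 ± 0.66 and 4.86 ± 0.35, and Acvr2b 3.75 ± 0.13, 3.10 ± 0.38 and 3.70 ± 0.41. The co-receptor gene Tgfbr3 (betaglycan) averaged 3.27 ± 0.23, 3.67 ± 0.53 and 2.97 ± 0.32 and was not called.

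The start regions of Inhbb and Acvr1c, which were higher in YSGr than in both other groups, and of Tgfbr1, which fell in both floxed groups, are shown as examples of a called ligand gene and 2 called receptor genes. Each runs 5′ to 3′ from 250 bases before to 50 after a transcript start, from RefSeq on GRCm38: Inhbb at chr1:119422199-119422498 on the minus strand, Acvr1c at chr2:58357709-58358008 on the minus strand and Tgfbr1 at chr4:47352972-47353271 on the plus strand. Capitals mark the GC-rich Smad1 and Smad5 element GGCGCC.
Inhbb: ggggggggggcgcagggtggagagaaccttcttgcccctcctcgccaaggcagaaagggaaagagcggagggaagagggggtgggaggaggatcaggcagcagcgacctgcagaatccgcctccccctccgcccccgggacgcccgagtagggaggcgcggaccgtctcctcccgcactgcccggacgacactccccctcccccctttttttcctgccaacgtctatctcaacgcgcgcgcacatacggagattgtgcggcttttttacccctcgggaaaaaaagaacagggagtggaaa
Acvr1c: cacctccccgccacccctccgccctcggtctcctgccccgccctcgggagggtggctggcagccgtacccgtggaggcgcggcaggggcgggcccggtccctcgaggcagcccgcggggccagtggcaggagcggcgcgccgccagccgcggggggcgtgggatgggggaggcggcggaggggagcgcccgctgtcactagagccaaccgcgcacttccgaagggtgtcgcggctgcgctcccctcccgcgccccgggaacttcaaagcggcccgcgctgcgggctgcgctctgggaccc
Tgfbr1: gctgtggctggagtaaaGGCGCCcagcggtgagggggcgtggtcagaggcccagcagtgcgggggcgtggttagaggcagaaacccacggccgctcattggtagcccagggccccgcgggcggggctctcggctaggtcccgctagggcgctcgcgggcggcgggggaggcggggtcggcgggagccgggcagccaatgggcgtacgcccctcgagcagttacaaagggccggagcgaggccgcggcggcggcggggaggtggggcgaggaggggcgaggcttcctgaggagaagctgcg

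These windows are 64.3%, 79.0% and 74.7% G and C. GGCGCC, which reads the same on both strands, occurred once in that of Tgfbr1 and not in the others. It was found in 31.4% of the 35 RefSeq start regions of 29 members, against 11.9% of 32851 start regions of all genes, and the member regions are richer in G and C, with a median of 66.3% against 52.7%. The TEAD core GGAATG, on either strand, occurred in 2.86% of member regions, that of Id3, and in 14.7% of all. A match describes letters only.

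Among the Smads, Smad3, the TGF-beta and activin effector with the highest level per kilobase, fell in YSGr. It was at 7.23, 7.03 and 6.94 log2 CPM in the SG libraries, at 5.68, 5.58 and 6.73 in YSGr and at 6.67, 6.62 and 6.67 in YSGnr. All floxed libraries lay below SG, but YSGr replicates 1 and 2 were more than 1 log2 unit lower, while replicate 3 was level with the YSGnr libraries. Smad3 fell by 1.07 in YSGr (SE 0.27, adjusted p = 0.0362), and the differences of -0.41 in YSGnr and -0.66 between YSGr and YSGnr were not called (adjusted p = 0.345 and 0.127). The call was lost without any 1 library other than YSGr replicate 3 and YSGnr replicate 1 (highest adjusted p = 0.144), in the 6 libraries alone (adjusted p = 0.0663) and without the mean-variance trend (limma, adjusted p = 0.0501).

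Smad9, a BMP effector, was at 2.52, 2.75 and 2.90 log2 CPM in the SG libraries, at 3.48, 3.42 and 2.55 in YSGr and at 2.38, 1.73 and 2.16 in YSGnr. YSGr lay above YSGnr without overlap, by 1.06 log2 units (SE 0.29), and missed the threshold (adjusted p = 0.0578). Smad1, Smad2, Smad4 and Smad5 were not called. Smad2, Smad4 and Smad5 lay below SG without overlap in both floxed groups. The differences of these 4 genes from SG lay between -0.36 and -0.13 log2 units, all below 0 (limma, adjusted p between 0.117 and 0.657).

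The inhibitory Smad gene Smad7, itself induced by the pathway, averaged 3.51 ± 0.03 log2 CPM in SG tumours, 4.40 ± 0.47 in YSGr and 3.72 ± 0.64 in YSGnr. Its YSGr libraries lay above SG, by 0.89 log2 units (SE 0.32), without a call (adjusted p = 0.116). Smad6, which restrains BMP signalling, averaged 0.60 ± 0.14, 0.80 ± 0.30 and 0.05 ± 0.69. Smurf1, a ubiquitin ligase that targets Smads and receptors, averaged 5.75 ± 0.06, 6.08 ± 0.24 and 5.61 ± 0.17, with YSGr above the other groups without a call (adjusted p = 0.194 against SG and 0.0793 against YSGnr).

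Id1, Id2 and Id3 are direct BMP targets that encode inhibitors of basic helix-loop-helix factors. None was called in any comparison. Id1 was at 3.46, 3.88 and 3.26 log2 CPM in the SG libraries, at 4.30, 4.06 and 4.36 in YSGr and at 2.80, 3.90 and 4.33 in YSGnr. YSGr lay above SG without overlap, by 0.71 log2 units (SE 0.35, adjusted p = 0.235), and YSGnr spanned both groups. Id3 averaged 4.61 ± 0.04, 4.91 ± 0.39 and 4.17 ± 0.55, and its value in YSGnr replicate 1, 3.53, was the lowest of the 9. Id2, the member with the highest level per kilobase in SG, was at 7.10, 6.83 and 7.06 in SG, at 7.04, 6.90 and 7.24 in YSGr and at 7.09, 7.43 and 7.50 in YSGnr, and the groups overlapped.

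**Figure D3:**
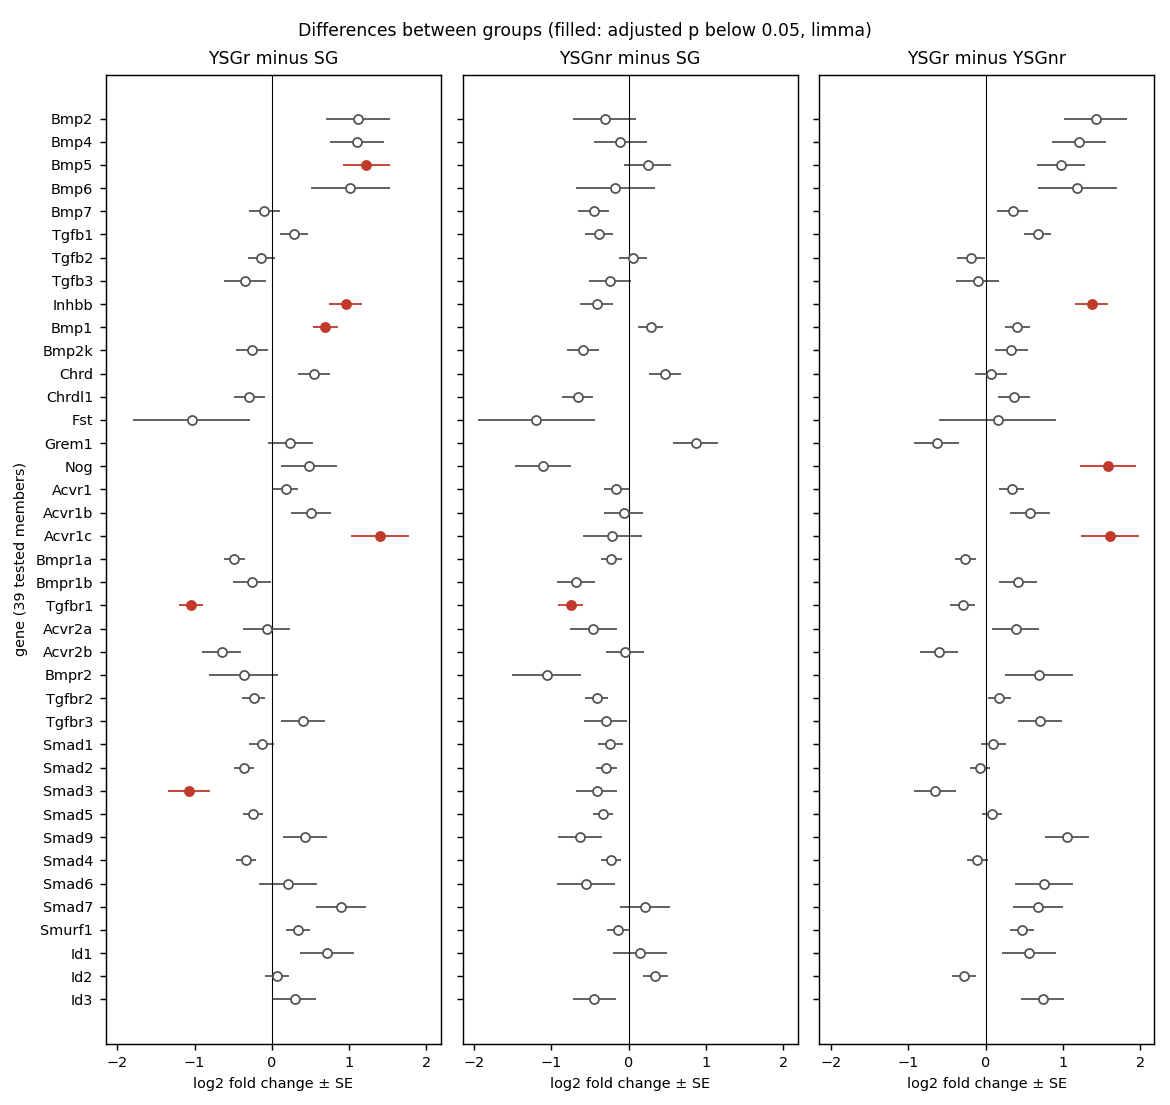
Each point is the log2 fold change of a tested member with its standard error in 3 comparisons (limma, 9 libraries), filled where the adjusted p is below 0.05. In YSGr against SG Tgfbr1 and Smad3 are filled to the left of 0 and Bmp5, Inhbb, Bmp1 and Acvr1c to the right, in YSGnr against SG only Tgfbr1 is filled, and in YSGr against YSGnr Inhbb, Nog and Acvr1c are.

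Other genes of the pathway were read from lists of ligands, receptors, modulators, latency proteins, intracellular regulators and targets. Over all tested genes 6.58% were called higher and 3.97% lower in YSGr against SG. These shares were 1.19% and 2.17% in YSGnr against SG and 5.09% and 0.879% in YSGr against YSGnr. The lists are short, and none was tested against these shares. Of 14 target genes tested, 3 rose in YSGr against SG: Atoh8 by 1.47 log2 units (SE 0.30, adjusted p = 0.0178), Msx2 by 1.22 (SE 0.31, adjusted p = 0.0386), both transcription factor genes induced by BMPs, and Cdkn1a, a cell cycle inhibitor gene, by 0.48 (adjusted p = 0.0413). None fell in that comparison and none was called in YSGnr against SG. Against YSGnr, Msx2 and Id4 were higher in YSGr, by 1.58 and 1.57 log2 units (adjusted p = 0.0349 and 0.0334). Id4 was at 4.78, 4.84 and 4.75 log2 CPM in the SG libraries, at 5.72, 5.62 and 4.49 in YSGr and at 3.40, 3.82 and 3.92 in YSGnr, and every YSGnr library lay below all others.

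Of 5 further receptors and co-receptors tested, the BMP co-receptor gene Rgma fell in both floxed groups, by 1.06 in YSGr (SE 0.13, adjusted p = 0.00335) and by 1.38 in YSGnr (SE 0.13, adjusted p = 0.00342). Its relative Rgmb fell by 1.01 in YSGr (SE 0.20, adjusted p = 0.0165). Of 13 extracellular modulators tested, Htra1, a secreted protease gene, rose in both floxed groups, by 1.37 and 0.83 log2 units (adjusted p = 0.00268 and 0.0328). Twsg1, of a BMP-binding protein, fell by 0.53 in YSGr (adjusted p = 0.0462), and Kcp, of a chordin-like protein, fell by 1.80 in YSGnr (adjusted p = 0.0141) and was 1.66 log2 units higher in YSGr than in YSGnr (adjusted p = 0.0267).

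Of 12 genes for latent TGF-beta handling, 2 rose and 1 fell in YSGr against SG. Ltbp2, of a matrix protein of the latency family, was at 3.02, 3.18 and 3.31 log2 CPM in SG and at 5.63, 5.93 and 4.50 in YSGr and rose by 2.18 log2 units (SE 0.33, adjusted p = 0.00661). Decorin (Dcn) rose by 0.85, and the integrin gene Itgav, whose product helps release TGF-beta, fell by 0.86 (adjusted p = 0.021 for each). Biglycan (Bgn) fell by 0.90 in YSGnr against SG (adjusted p = 0.0111), and Bgn, Lrrc32 and Ltbp2 were higher in YSGr than in YSGnr. Of 6 further ligands tested, Gdf3 rose in YSGr against SG (log2 fold change 1.56, adjusted p = 0.0414). Gdf3 was above 0 log2 CPM only in the YSGr libraries, at 1.05, 1.22 and 0.38. It therefore entered the test only through the group where it was high, which limits this call. Gdf10, also a Bergmann glia marker, fell in YSGnr against SG (-1.17, adjusted p = 0.0162), and Gdf10 and Gdf11 were higher in YSGr than in YSGnr by 1.05 and 0.81 (adjusted p = 0.0272 and 0.048). Of 17 intracellular regulators, Map3k7 fell by 0.43 in YSGr against SG (adjusted p = 0.0451) and the corepressor gene Ski was 0.67 higher in YSGr than in YSGnr (adjusted p = 0.0356).

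Single libraries carried much of the pattern among members. Of 9 members whose mean in YSGr replicates 1 and 2 was at least 1 log2 unit from SG, YSGr replicate 3 lay nearer to SG for 7, Acvr1c, Bmp4, Bmp6, Fst, Inhbb, Smad3 and Smad7, and nearer to its own group for Bmp2 and Bmp5. Without YSGr replicate 3, 11 members rose and 5 fell in YSGr against SG, where 27.9% of all genes were called. The added calls were higher for Acvr1b, Bmp4, Bmp6, Smad7, Smad9, Smurf1 and Tgfbr3 and lower for Acvr2b, Bmpr1a and Tgfb3. Against YSGnr it gave 19 higher and 2 lower members, where 42.8% of all genes were called. Without YSGnr replicate 1, the YSGnr and SG libraries were alike in Xist and Ddx3y, and Tgfbr1, Bmpr2, Chrdl1 and Bmp2k were called lower, 4 of 39, where 21.8% of all genes were called.

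Differences from SG in YSGnr replicates 2 and 3 and in YSGr replicate 3 were lower for longer transcripts over all genes, with a Spearman rho of -0.52, -0.50 and -0.41. In YSGnr replicate 1 rho was -0.07, and in YSGr replicates 1 and 2 it was 0.15 and 0.13. Over the 39 members, which share these libraries and are not replicates, rho was -0.26 and -0.40 in YSGnr replicates 2 and 3, -0.34 in YSGr replicate 3, 0.19 in YSGnr replicate 1 and -0.13 in each of YSGr replicates 1 and 2. The 16 members with transcripts of at least 5 kb had medians of -0.38 and -0.49 log2 units from SG in YSGnr replicates 2 and 3, and the 23 shorter ones -0.28 and -0.23. With a length and GC trend removed, no member was called in YSGnr against SG, where 4.64% of all genes were called, and the values of Acvr1c and Bmpr1a there turned from below to above 0.

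**Figure D4:**
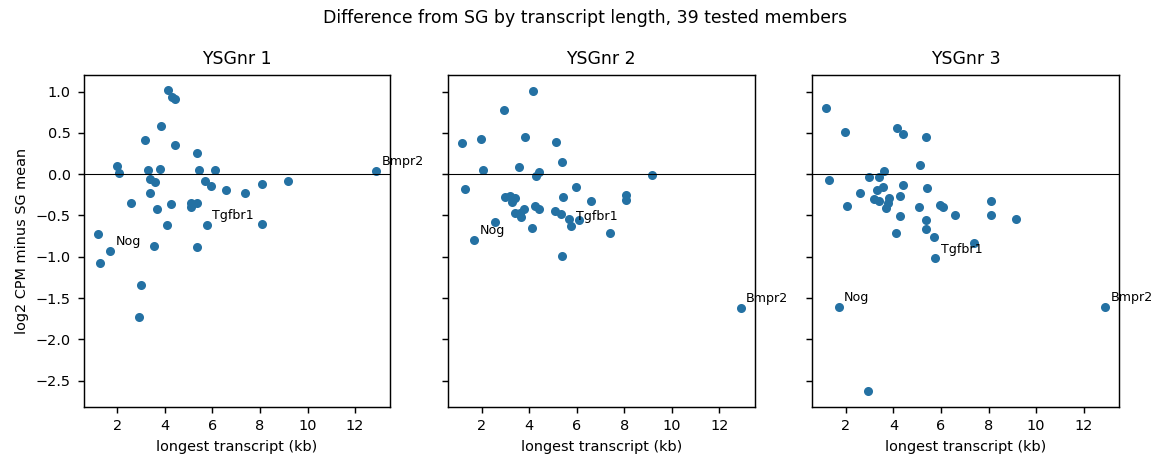
Each point is a tested member, placed by its longest GENCODE M21 transcript (horizontal, kb) and its log2 CPM minus the SG mean (vertical) in the 3 YSGnr libraries. Bmpr2, at 12.9 kb, is near 0 in replicate 1 and about 1.6 below SG in replicates 2 and 3, while Nog and Tgfbr1 lie below SG in all 3.

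Markers of several other cell types differed between these groups. Over all tested genes 10.5% were called in YSGr against SG, 3.36% in YSGnr against SG and 5.97% in YSGr against YSGnr. In YSGr against SG the choroid plexus list (11.1% called) and the mural and fibroblast list (7.14%) were near or below that share. Of 12 mature granule neuron markers 9 rose in YSGr against SG, with summed levels of 840 to 990 CPM in SG, 1505 to 2559 in YSGr and 1072 to 1248 in YSGnr, and of 10 oligodendrocyte markers 9 rose, with sums of 619 to 1184, 2519 to 3946 and 854 to 1909. Of 12 cell cycle genes 4 fell in YSGr, with sums of 2755 to 2762 in SG and 1126 to 2313 in YSGr. In YSGnr against SG 5 mature granule neuron and 2 oligodendrocyte markers rose and 1 cell cycle gene fell, and 2 of 10 granule neuron progenitor markers and 1 of 9 choroid plexus markers fell in YSGr. Of 14 endothelial markers 3 fell in YSGnr against SG, with sums of 292 to 327 in SG and 186 to 252 in YSGnr. Of 8 neural stem cell markers 3 fell in YSGr and 4 in YSGnr against SG, with sums of 992 to 1053 in SG, 454 to 776 in YSGr and 480 to 793 in YSGnr. Of 8 Purkinje cell markers 4 rose in YSGr and 2 in YSGnr against SG, with sums of 850 to 928, 1370 to 2268 and 540 to 1039. Of 12 markers of astrocytes and Bergmann glia 4 rose in YSGr, and in YSGnr 1 rose and 1 fell, with sums of 2890 to 3015, 2702 to 3769 and 1977 to 2740. Of 5 erythrocyte genes 3 fell in YSGr, with sums of 777 to 1118 in SG and 342 to 599 in YSGr. Of 14 markers of mural cells and fibroblasts 1 rose in YSGr and 2 fell in YSGnr, with sums of 780 to 847, 720 to 912 and 663 to 704. The 1 that rose was Dcn, already counted above among the genes for latent TGF-beta handling. None of 12 markers of microglia and macrophages was called in any comparison by limma (1, 1 and 3 had an unadjusted p below 0.05), with sums of 278 to 293, 224 to 305 and 182 to 447. Between the floxed groups, 9 of 12 mature granule neuron, 5 of 8 Purkinje cell, 4 of 14 mural and fibroblast, 3 of 14 endothelial and 2 of 12 astrocyte markers were higher in YSGr. Lower in YSGr were 1 meningeal and 1 erythrocyte gene, and Pdgfra, which went against the other called genes of the mural and fibroblast list. Of 8 meningeal markers 1 rose in each floxed group, and the sums were 136 to 167, 163 to 349 and 141 to 286. Choroid plexus sums ran from 26.2 to 1025 within YSGr alone, and the median of these 9 markers was 3.30 log2 CPM in YSGr replicate 2 and -1.01 and -0.19 in replicates 1 and 3. None of these lists had a gene at the lowest value in every library, and their part in the member differences was not tested.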

How the data were processed

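Total RNA from 9 libraries was sequenced on the DNBseq platform, per the labels' protocols. The authors deposited 1 table of log2 CPM for 17482 genes. The submitters' processing notes list edgeR, RSEM, Bowtie2, Trimmomatic and Picard, with mm10 as the build. The labels give no annotation, strand or ribosomal RNA removal. The shared lowest value, -3.52, implies an added count of 2.00 reads on average, from which depth was back-calculated. No count test was run.

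limma 3.58.1 in R 4.3.3 was fitted to all 9 libraries (group means, mean-variance trend, two-sided moderated test, Benjamini-Hochberg over 15251 genes with log2 CPM above 0 in at least 3 libraries), after the steps were tested on simulated data. Lengths, GC and positions were read from GENCODE M21 (GRCm38, which mm10 names too), and start regions from RefSeq on GRCm38. Levels per kilobase are log2 CPM minus log2 of the longest transcript in kb. Alternatives were other filters, a pseudocount of 1, other scalings, fits without trend, robust or with array weights, fewer libraries, the replicate number as a block, and a spline trend on length and GC removed.

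The members and lists were chosen with earlier results of these data known. Named with library values are the 7 members called in any comparison and the next by smallest p to make 12. Id4, Ltbp2, Gdf3, Bmpr2, Acvr1b, Acvr2a, Acvr2b, Id1, Id2, Id3, Fst and Bmp6 were chosen for single library values after their values were seen. Of the other pathway lists up to 4 called genes per list and comparison are named.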

Additional observations from a re-analysis of the deposited data

How the results depend on the processing

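Under the alternatives, the member counts below moved by more than 1.5 times, and the cause was not tested. With median scaling limma called 0 members (444 of all genes) in YSGnr against SG and 1 (316 genes) in YSGr against YSGnr. In the 6 libraries of a comparison it called 2 members (1190 genes) in YSGnr against SG and 0 (0 genes) in YSGr against YSGnr. Without the mean-variance trend it called 0 members (431 genes) in YSGnr against SG, and 568 of all genes in YSGr against YSGnr. Array weights called 29, 17 and 27 members (9661, 7316 and 9967 genes) in YSGr against SG, YSGnr against SG and YSGr against YSGnr. With a length and GC trend removed 0 members (708 genes) were called in YSGnr against SG and 6 (1556 genes) in YSGr against YSGnr.

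Deviations of same-numbered libraries from their group means correlated between -0.23 and 0.24, and those of differently numbered libraries between -0.25 and 0.23. With 3 libraries per group these values cannot decide whether the replicate numbers pair the samples. The replicate block called 3 members (1194 genes, 7.83% of all tested) in YSGr against SG and 0 (341 genes) in YSGnr against SG. With the trend also removed, an alternative chosen after seeing the data, it called 0 (330 genes) in the latter. The block alone ended the calls of Acvr1c, Bmp1 and Bmp5 in YSGr against SG (limma, adjusted p = 0.0669, 0.0552 and 0.0544), of Tgfbr1 in YSGnr against SG (0.0514) and of Acvr1c in YSGr against YSGnr (0.0516). With the trend also removed those of Bmp1 (0.057), Tgfbr1 in YSGnr (0.162) and Acvr1c against YSGnr (0.0587) were lost. Without both YSGr replicate 3 and YSGnr replicate 1, 24, 22 and 26 members were called (7556, 8074 and 9867 genes).

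Leaving out 1 library gave 1 to 16 members (328 to 4257 genes) in YSGr against SG, 0 to 6 (19 to 3332) in YSGnr against SG and 0 to 21 (1 to 6528) in YSGr against YSGnr. In the main comparisons 14, 10 and 15 of 39 members had an unadjusted p below 0.05 (limma), beside 3987, 3909 and 5170 of all 15251 genes. Sign was followed for the 12 members named with tests, and among these only uncalled differences of YSGnr from SG changed sign: Bmp2 to 0.061 with array weights, Acvr1c to 0.33 and Bmpr1a to 0.12 with the length and GC trend removed, with or without the block, and Bmp4 to 0.13 without SG replicate 3 and to 0.032 without YSGnr replicate 3, in a range from -0.25 to 0.13 over the libraries left out. Depth limits the low genes most, above all in YSGnr replicate 1.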
